A study of Mus musculus with 7 samples.

Results

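C/D box small nucleolar RNAs (snoRNAs) were examined in pancreatic islets of mice as all genes whose symbol in the platform annotation begins with Snord. A gene was used where a probe set carried its symbol alone; of several such probe sets the one used would be chosen by its highest mean over the 7 arrays, but each of these genes had only 1, so no measured value decided which genes entered. The family was taken up with earlier results of these data known, which had shown rises of snoRNA genes. It comprised 47 of the 22180 genes measured, whose lengths in the RefSeq table run from 48 to 221 bases with a median of 68.

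The 3 control arrays carried islets of mice with the genotype Gata6 flox/flox. The 4 arrays labelled Gata6 KO carried islets of Gata6 flox/flox;Pdx1-Cre mice, in which Cre is driven by the Pdx1 promoter of the pancreatic epithelium. Both groups share the floxed alleles, the controls lack Cre, and each array was a pool of islets from 3 mice aged 2 months. Expression was measured on whole-transcript arrays as log2 signals per probe set. The p-values cover the spread between these pools, and the number of arrays limits the precision.

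Box C and box D are short sequence elements near the ends of these RNAs, which bind the proteins fibrillarin (Fbl), Nop56, Nop58 and Snu13. The RNA then base-pairs with ribosomal RNA (rRNA) or with the spliceosomal U6 RNA and directs 2′-O-methylation of the paired base. A few members, among them U3, U8, U13 and U22, serve the cutting or maturation of the rRNA precursor instead. In mammals most C/D box snoRNAs are trimmed out of introns of host genes, many of which encode ribosomal proteins or nucleolar proteins or carry no long reading frame. The Snord115 and Snord116 families lie in an imprinted region and have no known rRNA target.

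On the arrays labelled Gata6 KO 37 of the 47 genes were higher and 0 were lower at a Benjamini-Hochberg adjusted p under 0.05 (limma, over all genes). Among all genes 17.4% were higher and 7.36% lower, or 3853 and 1633 genes. This split turned with scaling, to 1742 higher and 2831 lower once arrays were centred on their medians and to 2018 and 2892 after a repeated quantile normalization, while 35 snoRNA genes were higher under either. The number of all genes that were higher fell to 2246 without control 1 and to 2395 without control 2, against 35 and 36 of the snoRNA genes. Over all genes the log2 difference had a median of 0.17, so each change quoted is the log2 difference less that shift; SE and p belong to the difference as measured. The median change of the 47 genes was 1.56, against 0 by construction for all genes, and the range was -0.34 to 4.32. Of the called genes 18 had changed at least 4-fold, a further 16 between 2-fold and 4-fold, and 3 less than 2-fold. For 37 genes, or 78.7%, every Gata6 KO array lay above every control array, which held for 24.4% of all genes. Snord53 was called although its groups overlapped, and Snord37 was not called although its groups did not. Of the 100 largest rises among all genes 18 were Snord genes. A further 16 were H/ACA box snoRNA (Snora) or scaRNA genes, classes of 26 and 5 measured genes.

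**Figure D1:**
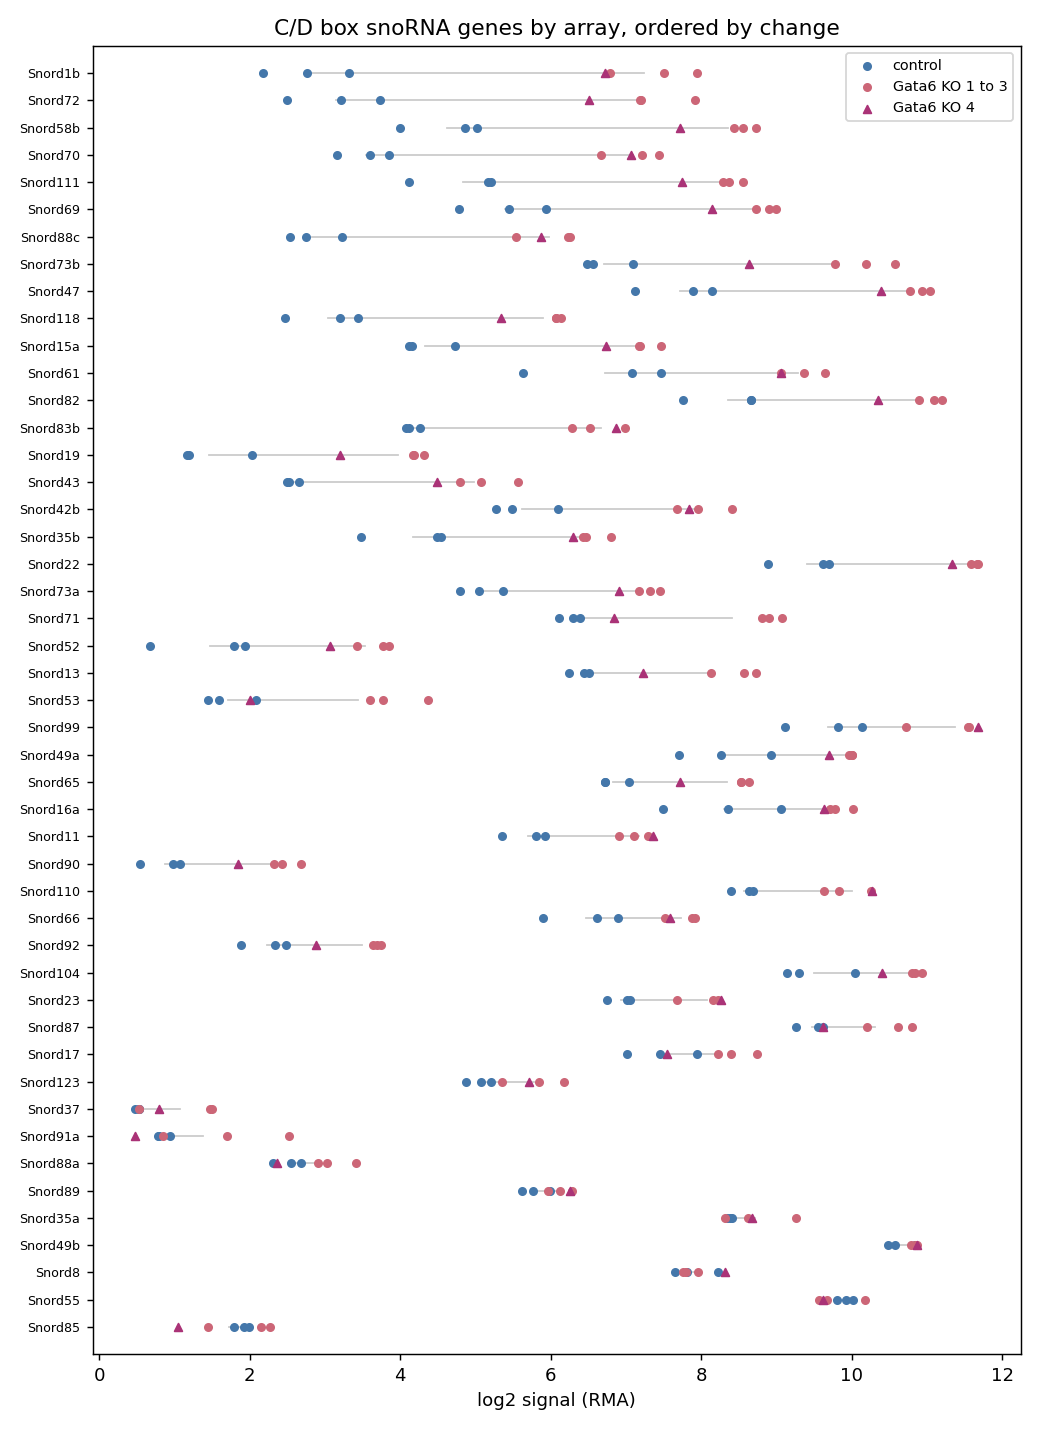
Log2 signal of the 47 C/D box snoRNA genes on each of the 7 arrays, ordered by change; blue points are the 3 control arrays, red points Gata6 KO 1 to 3, triangles Gata6 KO 4, and grey lines join the group means. The groups are separate for 37 genes, and overlap for Snord53 and for 9 of the 10 genes that did not pass.

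**Figure D2:**
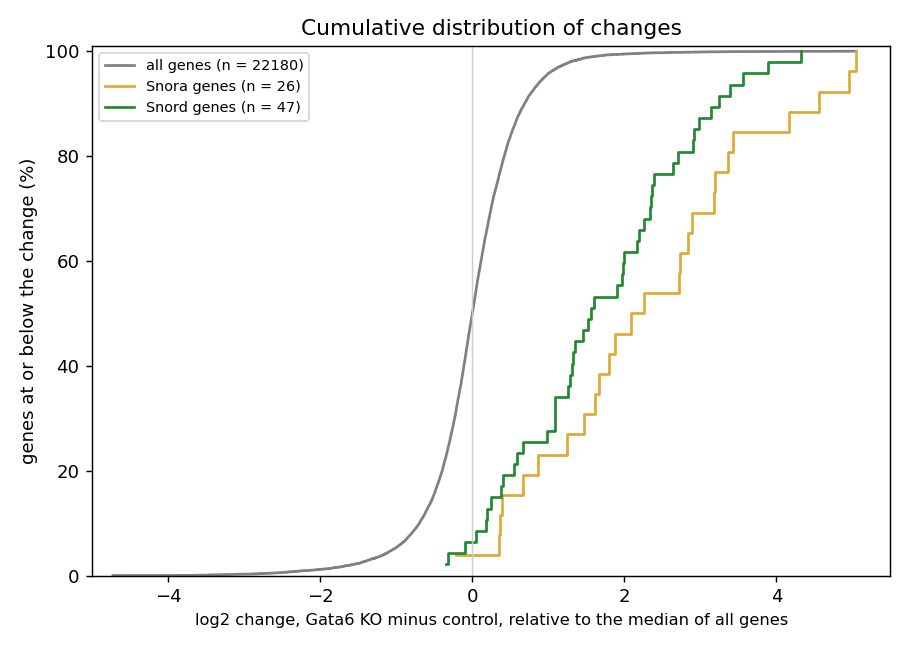
Cumulative share of genes (vertical axis, percent) at or below a given log2 change, Gata6 KO minus control relative to the median of all genes (horizontal axis), for all 22180 genes, the 47 Snord genes and the 26 Snora genes. The curves of both snoRNA classes lie to the right of all genes, with medians of 1.56 for Snord and 2.17 for Snora.

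The largest change belonged to Snord1b, a guide for 28S rRNA that lies within the span of the lncRNA gene Snhg16. The 3 controls gave log2 signals of 2.76, 3.32 and 2.17, and the 4 Gata6 KO arrays gave 7.95, 6.79, 7.50 and 6.72. The groups were far apart, with 3.40 between the highest control and the lowest Gata6 KO array. The change was 4.32 (SE 0.32, adjusted p = 1.59e-06, limma). The annotation also assigns 2 further probe sets to Snord1c and Snord1b together, with changes of 3.60 and 3.37 and no overlap of the groups, and name neither gene alone.

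A further 4 guides of 28S rRNA, Snord72, Snord58b, Snord111 and Snord69, came next in size together with the 18S guide Snord70. Snord72 measured 3.73, 3.21 and 2.49 in controls and 7.19, 7.91, 7.20 and 6.50 with Gata6 KO, a change of 3.89 (SE 0.33, adjusted p = 3.22e-06, limma). Snord58b measured 4.86, 5.03 and 4.00 against 8.55, 8.44, 8.73 and 7.71, a change of 3.57 (SE 0.28). In both, the highest values fell on Gata6 KO arrays 1 to 3 and array 4 was the lowest of its group. Snord70 measured 3.85, 3.61 and 3.16 against 7.22, 6.67, 7.44 and 7.06, a change of 3.39 (SE 0.24). Snord111 and Snord69 changed by 3.24 (SE 0.28) and 3.14 (SE 0.27). These 6 genes rose more than 8-fold.

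The guides were divided by the rRNA that their human counterparts are known to methylate, a division made after the values were seen and given here as a description. Only guides with a probe set of their own are counted, and shared probe sets are given further below. All 11 such guides of 18S rRNA rose, from 1.09 for Snord66 to 3.39 for Snord70, with a median of 2.19. Of 17 guides of 28S rRNA 12 rose and 0 fell, with a median of 1.52. Snord71, the guide of 5.8S rRNA, measured 6.12, 6.30 and 6.40 in controls and 9.07, 8.82, 8.90 and 6.85 with Gata6 KO. The change was 1.97 (SE 0.41, adjusted p = 0.00203, limma), and Gata6 KO 4 lay only 0.45 above the highest control. The remaining 14 genes, for which no target is assigned here, had 10 rises and a median of 1.18. Whether the guides of 18S and 28S rRNA differ was not tested.

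The 3 members that serve rRNA precursor processing rose. Snord118, which is U8 and is needed for the maturation of 5.8S and 28S rRNA, measured 2.47, 3.44 and 3.20 in controls and 6.07, 6.07, 6.13 and 5.34 with Gata6 KO. The groups did not overlap, and the change was 2.70 (SE 0.27, adjusted p = 9.44e-06, limma). Snord22, which is U22 and serves 18S maturation, went from 9.41 ± 0.45 (SD, n = 3) to 11.57 ± 0.16 (SD, n = 4). It was among the brightest of the family, and its change was 2.00 (SE 0.21). Snord13, which is U13 and guides acetylation of 18S rRNA, measured 6.44, 6.51 and 6.25 against 8.57, 8.73, 8.13 and 7.22, a change of 1.60 (SE 0.30, adjusted p = 0.000784, limma). U3, the most abundant RNA of this kind, carries the symbol Rnu3a here and is therefore no member by name. It measured 2.46, 3.26 and 2.24 against 6.85, 7.34, 6.33 and 4.07, a change of 3.33 (SE 0.56, adjusted p = 0.000598, limma). Snord14a and Snord14e are no members either, as their probe sets also name Rps13 and Hspa8. These probe sets changed by 0.42 and 0.77, and in both the groups overlapped.

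Of the imprinted snoRNAs 1 gene was measured, and it did not pass. No probe set carried a Snord115 or Snord116 symbol alone. The RefSeq table gives Snord116 as a synonym of Gm26504, which 15 probe sets with identical values measured, so they count as 1 measurement. Gm26504 gave 2.60, 3.00 and 2.75 in controls and 2.05, 2.30, 2.25 and 3.19 with Gata6 KO. The groups overlapped because array 4 was the highest of all, and the change of -0.50 (SE 0.27) did not pass (adjusted p = 0.389, limma). This signal is low, near-identical copies of the gene share it, and the difference between this gene and the rRNA guides was not tested. A further 16 probe sets that the annotation assigns to several genes of this cluster measured identical values among themselves. Their mean went from 2.83 ± 0.20 (SD, n = 3) to 2.40 ± 0.53 (SD, n = 4), with p = 0.229 in the exact two-sided permutation test.

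The genes that did not pass were 10, and they included some of the brightest. Snord49b, a 28S guide, measured 10.57, 10.84 and 10.48 in controls and 10.87, 10.84, 10.79 and 10.87 with Gata6 KO. Its groups overlapped and the change was 0.05, with a 95% interval from -0.30 to 0.40 from limma. Snord55, also a 28S guide, measured 9.92 ± 0.11 (SD, n = 3) against 9.76 ± 0.28 (SD, n = 4), with a change of -0.32 and an interval from -0.73 to 0.09. After a repeated quantile normalization Snord55 passed as lower, with an unshifted difference of -0.51 (adjusted p = 0.038, limma). Snord8, a guide of the U6 RNA, measured 7.89 ± 0.29 against 7.96 ± 0.25, with a change of -0.10 and an interval from -0.55 to 0.35. The sign of its unshifted difference turned when arrays were centred.

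The other genes that did not pass were Snord17, Snord37, Snord91a, Snord88a, Snord89, Snord35a and Snord85. Of these Snord37, Snord91a and Snord85 had control means of 0.51, 0.84 and 1.91. Snord90, Snord19 and Snord52, with control means of 0.87, 1.46 and 1.47, rose by 1.28, 2.34 and 1.90. Snord17 came closest (change 0.59, SE 0.28, adjusted p = 0.0629, limma) and passed without Gata6 KO 4, with an unshifted difference of 0.98 (adjusted p = 0.0106), and without control 2, with one of 0.99 (adjusted p = 0.0429). At the other side of the threshold stood Snord123 (change 0.55, adjusted p = 0.0301) and Snord87 (change 0.67, adjusted p = 0.0255). Both lost the call after centring each array on its median (adjusted p = 0.200 and adjusted p = 0.153, limma).

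Rises occurred at all signal levels. Of 12 genes with a control mean under 3, 8 rose, against 16.9% of all genes at that level. The counts were 13 of 14 between 3 and 6, where 17.4% of all genes rose, and 12 of 15 between 6 and 9, where 21.7% did. Above 9 they were 4 of 6, against 36.5%. Snord99, a 28S guide within the span of Snhg12 and one of the 4 brightest, went from 9.69 ± 0.53 (SD, n = 3) to 11.38 ± 0.44 (SD, n = 4), a change of 1.52 (SE 0.26). Snord104, another bright 28S guide, went from 9.50 ± 0.48 to 10.74 ± 0.23, a change of 1.08 (SE 0.22). Across the 47 genes the change had a Pearson r of -0.24 with the control mean and of -0.14 with gene length, given as a description of genes that share all 7 arrays.

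The arrays did not contribute equally. The median deviation of the 47 genes from their control means was 2.17, 2.06, 1.85 and 1.60 on Gata6 KO arrays 1 to 4. On the control arrays it was 0.01, 0.24 and -0.15. Gata6 KO 4 was the lowest of its group for 31 of the 47 genes, or 66.0%, and for 21.3% of all genes. Control 3 was the lowest of its group for 29 of them, or 61.7%, and for 33.0% of all genes. Without Gata6 KO 4, 38 genes were higher and the median change was 1.94. Snord53 shows the pattern at a low level, with 2.09, 1.45 and 1.60 in controls and 4.38, 3.77, 3.60 and 2.01 with Gata6 KO. Its array 4 fell within the control range, and the change was 1.56 (SE 0.42, adjusted p = 0.00817, limma).

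**Figure D3:**
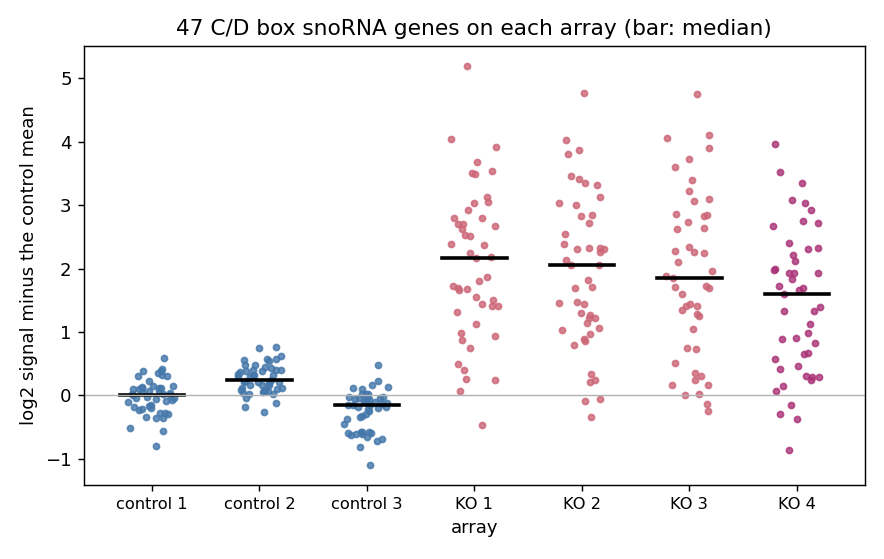
Log2 signal of each of the 47 C/D box snoRNA genes minus its control mean, on each array; points are genes and black bars the medians. The medians are 2.17, 2.06, 1.85 and 1.60 on Gata6 KO arrays 1 to 4 and between -0.15 and 0.24 on the control arrays.

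Most of these snoRNAs lie inside other genes, and the RefSeq table was used to find the gene that spans each of them. A spanning gene was found for 44 of the 47, in 36 different genes, and 25 of these hosts were measured for 33 of the snoRNAs. Where several genes span a snoRNA, which was so for 5, the shortest was taken; the table gives no strand for the snoRNAs, so a host on the opposite strand is possible. By type of host, 10 of 12 snoRNAs within ribosomal protein genes rose (median 2.22), 11 of 13 within lncRNA genes (median 1.45) and 14 of 19 within other protein-coding genes (median 1.28). Of the 3 without a host Snord118 and Snord13 rose and Snord89 did not pass.

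The hosts changed less than the snoRNAs they contain. Of 25 measured hosts 10 were higher and 1 was lower, with a median change of 0.38. Among all genes 17.4% were higher and 7.36% lower. The host counts were 6 and 2 with arrays centred on their medians, against 1742 and 2831 of the 22180 genes. Without control 1, 6 hosts were higher, against 2246 of all genes. Of the 29 snoRNAs that rose and had a measured host, the host also rose for 12 and was not called higher for 17. The change of the snoRNA exceeded that of its host for 28 of 33, with a median difference of 1.27. In exact two-sided permutation tests of the difference per array, adjusted over the 33, the snoRNA exceeded the host for 19 and fell short of it for 1, Snord73a (adjusted p = 0.0472 in each, from the smallest possible p of 0.0286). Across the 33, the changes of snoRNA and host had a Pearson r of -0.01, given as a description.

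**Figure D4:**
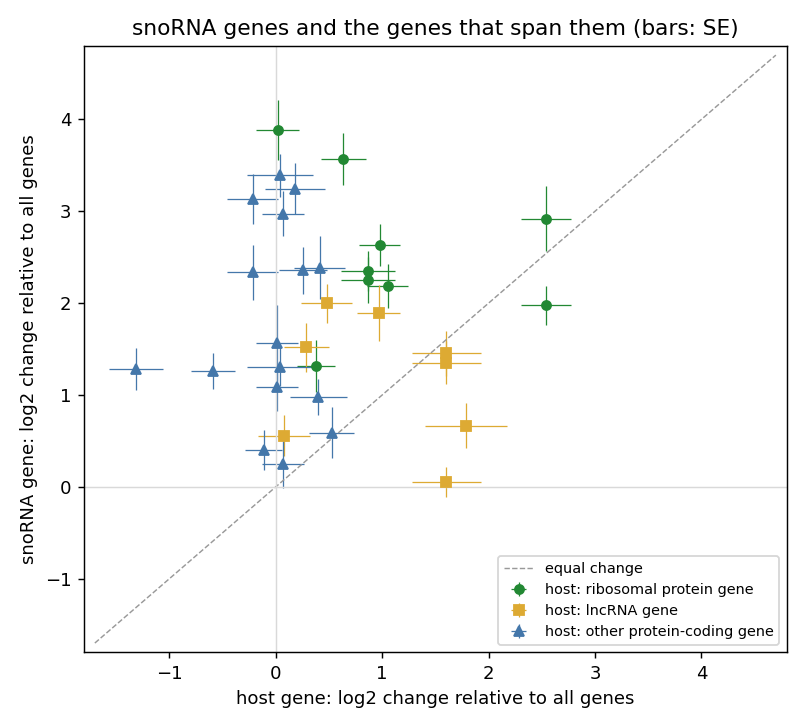
Log2 change of 33 snoRNA genes (vertical axis) against that of the gene that spans them (horizontal axis), both relative to the median of all genes, with SE bars; colours give the type of host and the dashed line equal change. Of the 33 points 28 lie above the line, and Snord70 at 3.39 sits above a host, Nop58, at 0.04.

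Nop58 and Nop56, which encode core proteins of the same ribonucleoprotein, are hosts themselves. Nop58, the host of Snord70 and Snord11, went from 4.84 ± 0.14 (SD, n = 3) to 5.04 ± 0.71 (SD, n = 4) and did not pass (adjusted p = 0.672, limma). Ncl, which encodes nucleolin and spans Snord82, changed by 0.26 (SE 0.23), while Snord82, an 18S guide, went from 8.36 ± 0.52 to 10.88 ± 0.38, a change of 2.36 (SE 0.26). Gnl3, a nucleolar GTPase gene, changed by -0.22 (SE 0.24), and the 2 snoRNAs it spans changed by 3.14 (SE 0.27, Snord69) and 2.34 (SE 0.30, Snord19). Rps3a1, a ribosomal protein gene, went the same way as its snoRNAs. It changed by 2.54 (SE 0.23), with Snord73b at 2.92 (SE 0.35) and Snord73a at 1.98 (SE 0.21). Snord90, at a low level, rose by 1.28 (SE 0.23) within Rc3h2, the only measured host that was lower, at -1.31 (SE 0.26). Snord110, an 18S guide within Nop56, rose by 1.26 (SE 0.20) while Nop56 changed by -0.59 (SE 0.21). The hosts Rpl37 and Rpl17 had low control means, of 1.20 and 0.88, and Rpl17 was higher by 0.63 (SE 0.21, adjusted p = 0.0141, limma).

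The lncRNA hosts Snhg16, Gas5, Snhg12 and Snhg1 are shown by the sequence around their starts. The host gene's start is where transcripts that carry an intronic snoRNA begin. Genes of the translation machinery often start with a pyrimidine tract, searched here as a C followed by at least 4 letters that are C or T, beginning within 10 bases of the annotated start on the transcribed strand only. Each line gives 40 bases before and 20 after the start (RefSeq, GRCm38.p6), with the tract in capitals.
Snhg16, host of Snord1b, chr11:116671620-116671679, plus strand: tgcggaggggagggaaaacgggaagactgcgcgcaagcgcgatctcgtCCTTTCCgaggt
Gas5 (the second of its listed starts), host of Snord47, chr1:161035126-161035185, plus strand: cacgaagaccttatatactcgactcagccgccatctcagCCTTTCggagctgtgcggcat
Snhg12, host of Snord99, chr4:132308638-132308697, plus strand: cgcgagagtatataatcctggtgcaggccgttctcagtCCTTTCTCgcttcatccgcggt
Snhg1, host of Snord22, chr19:8723447-8723506, plus strand: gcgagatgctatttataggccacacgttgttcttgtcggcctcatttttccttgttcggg
The windows of Snhg16 and Snhg12 and the second Gas5 window hold the tract. The window of the first Gas5 start, chr1:161034561-161034620, which is not printed, and that of Snhg1 do not. The lncRNA hosts 1110038B12Rik, 2410006H16Rik, Gm17344, Gm36220 and Snhg18, also not printed, hold the tract. Counting a gene where any of its listed starts holds it, it was found for 12 of 27 hosts with a start window (44.4%). It was found for 34.4% of all 27025 genes with one. Among hosts that are not ribosomal protein genes it was found for 11 of 22. Of the ribosomal protein hosts with a window only Rpl13a held it, and Rpl37, Rpl4, Rps3 and Rps3a1 did not. The search depends on where the start is annotated. In the window of Rpl4 a run of C and T begins more than 10 bases before the start, and so was not counted. This is a match of letters, and these shares were not tested.

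Snord47, the member within Gas5, measured 8.14, 7.89 and 7.13 in controls and 10.77, 11.04, 10.94 and 10.39 with Gata6 KO. The groups were 2.25 apart at their nearest, and the change was 2.90 (SE 0.24, adjusted p = 3.14e-06, limma). Gas5 had no probe set of its own. Snhg1, the host of Snord22, changed by 0.48 (SE 0.24) and did not pass (adjusted p = 0.0646, limma), while Snord22 rose by 1.52 more than it.

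SnoRNAs of one host did not always change alike. Snord11 and Snord70, both 18S guides within Nop58, changed by 1.31 (SE 0.21) and 3.39 (SE 0.24). On the control arrays Snord11 lay 2.15 ± 0.18 (SD, n = 3) above Snord70, and on the Gata6 KO arrays 0.07 ± 0.23 (SD, n = 4). Snord88a and Snord88c within 2410002F23Rik changed by 0.24 (SE 0.25) and 2.98 (SE 0.24). Within 2410006H16Rik, a lncRNA gene that rose by 1.60 (SE 0.32), the 28S guide Snord49a and the 18S guide Snord65 changed by 1.45 and 1.35, and Snord49b by 0.05. Of 9 pairs of snoRNAs with a common host 4 reached the smallest p that the exact two-sided permutation test allows, 0.0286. After adjustment over the 9 pairs none passed, with a smallest adjusted p of 0.0644.

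**Figure D5:**
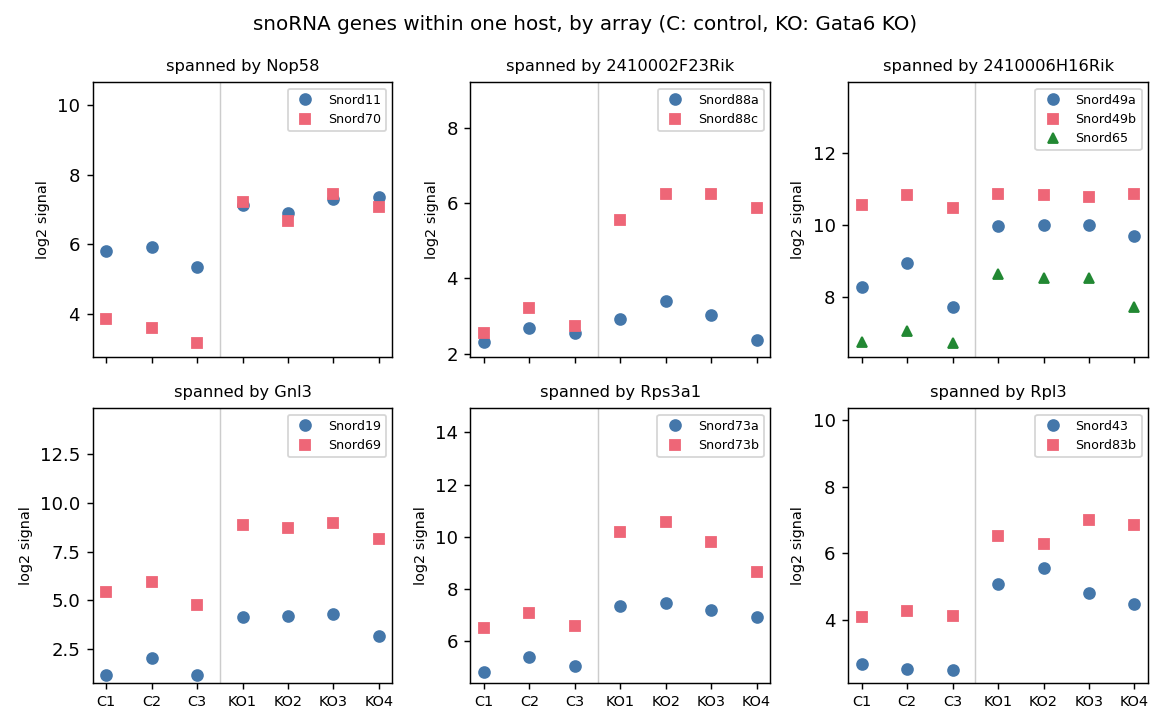
Log2 signal of snoRNA genes that share a host, by array, in 6 panels, 1 for each of 6 hosts; C marks control arrays and KO Gata6 KO arrays, and the vertical axes differ between panels. Snord11 and Snord70 lie apart on the control arrays and close together on the Gata6 KO arrays, while Snord49b stays near 10.8 in the panel of 2410006H16Rik.

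The proteins that bind, assemble, trim and use C/D box snoRNAs were taken as a list of 74 measured genes. Of these 14 were higher and 1 was lower, where 17.4% of all genes were higher, so the share of the list lay near that of all genes. The median change was 0.13, and 7 were higher and 4 lower after centring each array on its median. Of the 4 core genes measured (Nop56, Nop58, Snu13 and Rrp9) 0 passed limma's test, and 1, Snu13, had an unadjusted p under 0.05. Fbl was not measured by a probe set of its own. Nop56 measured 5.10 ± 0.23 (SD, n = 3) against 4.67 ± 0.19 (SD, n = 4). Of 11 assembly factors 3 rose and 1 fell. The assembly factor Znhit3 changed by 0.91 (SE 0.21), and Ruvbl1, a helicase of the same machinery, by 0.85 (SE 0.23). Of 14 trimming and decay genes 0 passed limma's test and 3 had an unadjusted p under 0.05. Of 25 genes of the U3 processome, the particle that cuts the rRNA precursor, 5 rose, with Utp18 at 0.95 (SE 0.25). Of 21 nucleolar and RNA polymerase I genes 6 rose, among them Npm1, which encodes nucleophosmin, at 2.57 (SE 0.28) and Taf1d, a polymerase I factor, at 2.59 (SE 0.29). The counts for the 74 genes fell to 8 higher without control 2 and to 9 without control 1.

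Other short RNAs are given beside these values, a set chosen after the data were seen, and they did not all change alike. Of 26 H/ACA box snoRNA genes 23 were higher, with a median change of 2.17, and Gata6 KO 4 was the lowest of its group for 20. Of 5 scaRNA genes 4 were higher, with a median of 2.33. Of 9 other small structured RNA genes, Rnu3a among them, 5 were higher and 4 did not pass. The Y RNA gene Rny1 changed by 4.03 (SE 0.27), Rny3 by 1.37 (SE 0.40), the RNase P RNA gene Rpph1 by 1.05 (SE 0.22) and the telomerase RNA gene Terc by 1.01 (SE 0.30). Those that did not pass were the spliceosomal RNA genes Rnu11, Rnu12 and Rnu5g, with changes of 0.61, 0.26 and -0.09, and the 7SK RNA gene Rn7sk, with -0.05. Rnu5g had a control mean of 0.49, near the lowest signals, and Rn7sk one of 12.54, near the highest. Of 472 microRNA genes 72 were higher and 5 lower, with a median of -0.0016, against 17.4% and 7.36% of all genes. The median control level of the microRNA genes was low, at 0.97 against 2.24 for all genes. The labels give neither RNA integrity nor the recovery of short RNA, so the part of either in these rises was not tested.

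Markers of several cell types differed between the groups as well. All 11 measured endocrine markers fell on the Gata6 KO arrays (median -2.59), and the mean of that list ran from 9.33 to 9.95 in controls and from 5.51 to 7.66 with Gata6 KO, lowest on Gata6 KO 3. Of 10 acinar markers 5 rose, and their mean ran from 9.25 to 9.38 and from 10.19 to 10.30. Of 6 mesenchymal markers 5 rose, of 6 lymphoid markers 4 rose and of 6 endothelial markers 4 fell, while 1 of 6 myeloid markers rose and 1 of 4 ductal markers fell. The lymphoid mean ran from 1.81 to 1.93 and from 2.66 to 3.73, and the mesenchymal mean from 2.82 to 3.66 and from 3.58 to 5.88. The part of cell makeup in the snoRNA changes was not tested, and in bulk RNA fewer cells of a type and less RNA per cell cannot be told apart. On Gata6 KO array 3, where endocrine markers were lowest, the median deviation of the snoRNA genes was 1.85, between the values of arrays 2 and 4. The lymphoid, myeloid and ductal means fell from Gata6 KO array 1 to array 4, as that median deviation did. The endocrine, acinar, mesenchymal and endothelial means did not keep that order. These orders were not tested. The endocrine hormone genes Ins2, Gcg, Sst and Ppy changed by -1.66, -2.59, -2.38 and -4.73, and Chga, of endocrine secretory granules, by -3.55. Gata6 itself went from 4.74 ± 0.12 (SD, n = 3) in controls to 5.28 ± 0.18 (SD, n = 4) under the Gata6 KO label, and so was not lower. Every Gata6 KO array lay above every control array, as for 24.4% of all genes. Gata6 changed by 0.37 (SE 0.20, adjusted p = 0.0622, limma). Where its probes lie relative to the deleted exons was not established, so it does not check the labels.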

How the data were processed

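The log2 values were deposited by the authors, per the submitters' processing notes normalized and summarised with RMA and Transcriptome Analysis Console (versions not given in the sources used here, nor the genome build). Base 2 is taken from RMA. Medians over the 41345 probe sets still differed between arrays, from 1.72 to 2.11.

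The platform annotation gave probe sets their genes: 23521 had 1 symbol, 1814 several and 16010 none. The 22180 genes were fitted with limma 3.58.1 in R 4.3.3 (lmFit, eBayes with trend, no covariate) and p-values adjusted over all genes by Benjamini-Hochberg at 0.05. The fit was tested on simulated data. Exact tests used all 35 arrangements of the arrays. Hosts were taken from the RefSeq table (GRCm38.p6), by span, because the strand planned for this step is not in the table. All 47 members matched it. Sequences came from the RefSeq start-window table; snoRNA sequences were not used here.

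The members, lists and tests were chosen with earlier results of these data known. Named by rule were the 12 largest rises, the 4 brightest members, the processing and imprinted members, those of Gas5 and Snhg1, and the 3 genes of each list with the smallest p, with hosts, Gata6 and 5 endocrine genes. Classes of guides were written after values were seen. Other genes were named after their values were seen. Alternatives covered scaling, filter, probe sets, variance prior, array weights, threshold, the replicate block and leaving out each array. One was added after seeing the data, the 5 arrays with high Xist, at log2 signals of 5.02 to 5.6. Xist was low on control 3, at 1.34, and on Gata6 KO 3, at 2.15.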

Additional observations from a re-analysis of the deposited data

Results flagged for a closer look

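On the 4 Gata6 KO arrays 7 of the 47 C/D box snoRNA genes had 1 array far from the other 3 by Dixon's criterion. Chance alone gives about 1 in 20 for independent values. The 47 genes share the same 4 arrays, so their number cannot be read against that rate. The share over all genes is not given here. For 6 of these the array was Gata6 KO 4, and each was low. Snord118 measured 5.34 there, against 6.07 to 6.13 on the other 3. Snord71 measured 6.85 against 8.82 to 9.07, and Snord65 measured 7.72 against 8.52 to 8.64. Snord19 was at 3.19 against 4.17 to 4.32, Snord92 at 2.88 against 3.64 to 3.74, and Snord49a at 9.70 against 9.96 to 10.01. The remaining gene was Snord99, at 10.7 on Gata6 KO 2 against 11.5 to 11.7.

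Probe sets whose annotation joins a Snord symbol with another gene were left out of the family. Of 17 such probe sets outside the Snord116 cluster, 10 had every Gata6 KO array above every control array. Among all genes this held for 24.4%. The 10 include the 2 probe sets of Snord1c and Snord1b already given with Snord1b. The changes of the 17 relative to all genes ran from -0.54 to 4.15 with a median of 0.90. The highest belonged to a probe set shared by Snord12 and Zfas1. The lowest belonged to one shared by Snord57 and Nop56, and the one shared by Snord32a and Rpl13a was at -0.02. In both of these the groups overlapped.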

How the results depend on the processing

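Of the 47 C/D box snoRNA genes between 35 and 40 were higher under each of 18 alternatives. In every alternative that tested them 34 were called. Of these Snord90 was not tested with the lowest 40% of genes left out. Calls were lost by Snord123 and Snord87 under several alternatives, and by Snord53 on the 5 arrays with high Xist (adjusted p = 0.0704, limma). Leaving out each array gave 35 to 38 genes higher and a median change of 1.442 to 1.938. The median was 1.863 with the lowest 40% of genes left out, where fewer genes were tested. Replicate numbers did not pair the arrays (correlations of deviations 0.098, 0.004 and 0.115). With the replicate block 40 genes were higher and the median was 1.938. Only Gata6 KO 4 has replicate number 4, so the block takes it out of the comparison. The median without Gata6 KO 4 was 1.938 as well.

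Centring each array gave 1742 genes of all higher and 2831 lower, 6 hosts higher and 2 lower, and 7 snoRNP and processing genes higher and 4 lower. A repeated quantile normalization gave 2018 genes higher and 2892 lower, 2 hosts lower, 7 and 4 snoRNP and processing genes, and 1 snoRNA gene lower, Snord55. At an adjusted p under 0.01, 1855 genes were higher and 942 lower, with 8 and 0 of the snoRNP and processing genes. Testing all probe sets gave 0 of these lower, and the arrays with high Xist gave 7 higher, 0 lower and 2231 of all genes higher. Leaving out each array gave 2246 to 3812 of all genes higher and 1019 to 1801 lower, 6 to 11 hosts higher, and 8 to 20 snoRNP and processing genes higher and 0 to 1 lower. The lowest counts came without control 1 (2246 genes, 6 hosts) and without control 2 (8 snoRNP and processing genes).

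Unshifted differences that were not called turned sign in 4 genes. Snord49b was at -0.031 after centring and -0.307 after quantile normalization, and Snord35a at -0.085 after the latter. Snord8 was at -0.180 after centring, -0.371 after quantile normalization, -0.0063 with array weights and -0.054 with the replicate block. It ran from -0.054 (without control 3; the same without Gata6 KO 4) to 0.228 (without control 2) when arrays were left out. Snord85 was at 0.050 with the replicate block and ran from -0.357 (without Gata6 KO 3) to 0.050 (without Gata6 KO 4). The cause of these shifts was not tested.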
